A study of Mus musculus with 16 samples.

Results

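The 10 genes described here encode actin-binding proteins: the twinfilins Twf1 and Twf2, Lasp1, Tagln2 (transgelin-2), Cnn3, Coro1c, Cap1, Tmsb4x, Pfn1 and Cfl2. They were chosen by name, as reported targets of the miR-1/miR-206 family and their relatives in the actin cytoskeleton. All 10 were found among the 35275 genes of the deposited expression table, and all 10 were among the 11832 genes whose mean level reached 0.5 FPKM (fragment counts scaled by transcript length and library depth) and that were tested. Their levels were measured by poly(A) RNA-seq in 16 libraries of C2C12, an established line of mouse myoblasts, which form multinucleate myotubes once serum is lowered. The cells were PAX7 negative per the labels. Control cells were 2 wild-type populations, and triple knockout (tKO) cells were 2 clones in which the genes of miR-206, miR-1a-1 and also miR-1a-2 were knocked out. GM libraries came from proliferating cells in 20% fetal bovine serum, and DM3 libraries from cells kept for 3 days in 2% horse serum. Each genotype at each stage, 4 groups in all, held 4 libraries, from 2 populations or clones with 2 numbered replicate cultures each. The labels do not say how the replicate cultures were made, so the p-values below measure the spread between these libraries, which may in part be technical, and each tKO clone is a single clone.

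Actin filaments grow by adding monomers at one end and lose them at the other, and the proteins studied here act at different points of that cycle. Thymosin beta 4 (Tmsb4x), profilin 1 (Pfn1), the twinfilins and cyclase-associated protein 1 (Cap1) bind actin monomers. Cofilin 2 (Cfl2), the muscle cofilin, severs filaments, coronin 1C (Coro1c) binds filaments and works with the Arp2/3 complex, and Lasp1, Tagln2 and calponin 3 (Cnn3) lie along filaments and bundle or stabilise them. miR-1 and miR-206 share one seed and are induced as myoblasts become muscle. They can lower mRNAs that carry the complement of that seed in the 3′ UTR, though not every such mRNA responds.

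The mature miR-206 sequence and the matching 3′ UTR stretches are shown because they are the feature by which these genes are linked to the deleted miRNAs. miR-206-3p, printed 5′ to 3′ with the seed (bases 2 to 8) in capitals, lies at chr1:20679055-20679076 on the plus strand (RefSeq, GRCm38.p6).
mmu-miR-206-3p: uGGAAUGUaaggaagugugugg
The longest 3′ UTR of each gene in GENCODE M21 (GRCm38) was searched on the transcript strand for 3 nested motifs. ACATTCCA is the seed complement followed by A (8mer), ACATTCC is the seed complement alone (7mer-m8), and CATTCCA matches all but the last seed base and ends in A (7mer-A1). A stretch counted once, as the longest of the 3 motifs. Capitals below mark the motif, and each sequence is the mRNA sense strand written as DNA.
Twf1 8mer: gaagtcaatgcACATTCCAgaa
Tmsb4x 8mer: atatgcactgtACATTCCAcga
Coro1c first 8mer: gccatttggagACATTCCAtgt
Coro1c second 8mer: agcgataggccACATTCCAgta
Tagln2 7mer-m8: tgttttagcagACATTCCctg
Cnn3 7mer-m8: atgccttatgtACATTCCttt
Lasp1 first 7mer-A1: tgtcttcaatgCATTCCAtgg
Cap1 first 7mer-A1: ttgccacccagCATTCCAagc
The Twf1 8mer lies at chr15:94578167-94578188 (minus strand), from base 1643 of a 3′ UTR of 1869 bases, and the gene also holds a 7mer-A1 from base 71. The Tmsb4x 8mer lies at chrX:167207462-167207483 (minus strand), from base 29 of 408. The 8mers of Coro1c lie at chr5:113844254-113844275 and chr5:113844218-113844239 (minus strand) and start 36 bases apart. The Tagln2 stretch lies at chr1:172506766-172506786 and the Cnn3 stretch at chr3:121457547-121457567, both on the plus strand. Lasp1 holds 2 7mer-A1 matches, the first at chr11:97836265-97836285 (plus strand). Cap1 holds 3, the first at chr4:122859638-122859658 (minus strand).

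Of the 10 genes, 7 held at least 1 motif and 3 (Twf1, Coro1c and Tmsb4x) held an 8mer. Twf2, Pfn1 and Cfl2 held none in 3′ UTRs of 394, 274 and 2308 bases. Among 10806 tested genes with a 3′ UTR, 19.0% held at least 1 of the motifs and 4.46% held an 8mer. The genes were picked in part as reported targets, so the number that carry a motif follows in part from that choice. A motif is a match of letters and was not tested as a binding site.

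**Figure D1:**
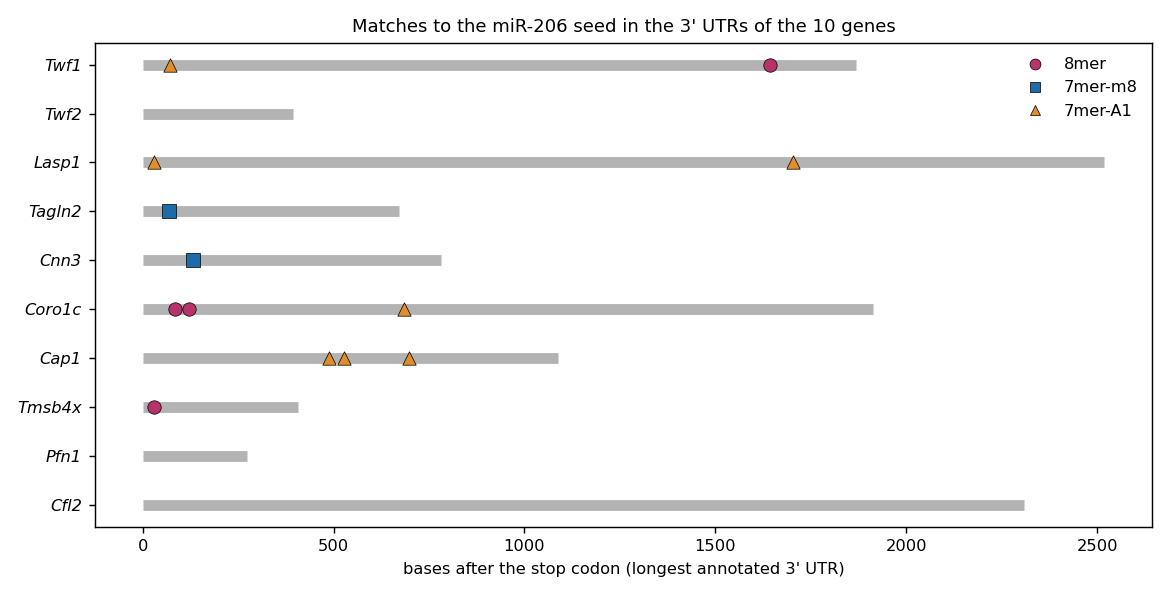
Positions of the miR-206 seed matches along the longest 3′ UTR of each of the 10 genes; the x axis is the distance in bases from the stop codon, each horizontal line is one 3′ UTR drawn to its length, and symbols mark the 3 kinds of match. Coro1c carries a close pair of 8mers near the stop codon, and Twf2, Pfn1 and Cfl2 carry no match.

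The libraries held 22642563 to 56585952 fragments, and each of the 10 genes was covered by at least 522 fragments in every library. Of 16 tested myogenic markers, 15 rose from GM to DM3 in control and in tKO cells, as the myotube labels of the DM3 libraries say. None of 8 endothelial markers passed the filter, their summed level being at most 0.964 FPKM in any library, and 8 blood cell markers summed to at most 9.57 FPKM. The 8 fibroblast markers, among them collagens that myoblasts also express, summed to 513 to 1434 FPKM in GM and 1743 to 3338 FPKM in DM3. Of the 6 tested, 1 was lower in tKO GM (Pdgfra, 0.778 against 3.23 FPKM) and 1 was lower in tKO DM3 (Dcn, 9.50 against 30.1 FPKM), with list medians of -0.41 and -0.35 (log2). Their part in the members' differences was not tested. Mature miRNAs are not measured in poly(A) libraries. The noncoding transcript row that spans Mir206 held 59 to 608 fragments in DM3 libraries of control cells, against 14 to 152 for tKO cells at that stage. Whether that row lies outside the deleted bases was not given in the sources used here, so it checks nothing. In bulk RNA, fewer cells of a type and less RNA per cell cannot be told apart.

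Tmsb4x (chrX:167207093-167209315, mm10, minus strand), the monomer-sequestering thymosin, stood highest above control in tKO DM3. Values for each group are given in the order line 1 culture 1, line 1 culture 2, line 2 culture 1, line 2 culture 2, where a line is a control population or a tKO clone. In control cells its level was 254, 312, 265 and 315 FPKM in GM and 269, 257, 279.7 and 261 FPKM in DM3. In tKO cells it was 319, 582, 319.8 and 600.5 FPKM in GM and 908, 603, 1349 and 886 FPKM in DM3. Every tKO DM3 library lay above every control DM3 library, and the tKO GM libraries lay just above or well above the control GM range, with no overlap. The DM3 means were 267 ± 9.82 FPKM in control and 937 ± 308 FPKM in tKO cells (SD, n = 4 each), a ratio of 3.51. During differentiation the control level moved by -0.10 (log2 difference, SE 0.23; 95% interval -0.58 to 0.39; limma, adjusted p = 0.739), and its sign turned to 0.11 under median-of-ratios scaling. In tKO cells Tmsb4x rose by 1.05 (SE 0.23; limma, adjusted p = 8.88e-04). Tmsb4x made up 23.5 ± 1.77% of the 10 genes' summed FPKM in control DM3, against 49.0 ± 10.8% for tKO DM3.

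Twf1 (chr15:94577951-94589889, minus strand), the twinfilin of most tissues, binds monomers and caps filament ends. Its control levels were 42.9, 40.5, 45.1 and 42.7 FPKM in GM and 9.93, 10.6, 11.5 and 17.3 FPKM in DM3. The tKO levels were 39.7, 39.0, 40.5 and 34.6 FPKM in GM and 13.7, 34.0, 26.3 and 40.8 FPKM in DM3. The tKO DM3 libraries thus ran from inside the control DM3 range to near the GM level, with clone 1 culture 1 the lowest. Twf1 fell in control cells during differentiation (log2 difference -1.74, SE 0.24; limma, adjusted p = 9.76e-06). In tKO cells the difference was -0.51 (SE 0.24; adjusted p = 0.0729), which did not pass the test. That value depended on single libraries. It was -0.21 without clone 1 culture 1, -0.19 without clone 1 and -0.042 without DM3 culture 1, and it passed without clone 1 culture 2 (-0.62), clone 2 culture 2 (-0.71), clone 2 (-0.83) or DM3 culture 2 (-0.97). Its adjusted p ranged from 8.93e-04 to 0.835 over 32 alternative fits (limma). The mean in DM3 was 12.3 ± 3.36 FPKM in control and 28.7 ± 11.6 FPKM in tKO cells (SD, n = 4 each).

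The spread of Twf1 among tKO DM3 libraries ran opposite to the level of the myogenic markers. Over the same order of libraries the mean log2(FPKM + 1) of 16 myogenic markers was 5.53, 4.59, 5.24 and 4.44 in tKO DM3 and 5.08, 5.204, 4.71 and 5.02 in control DM3. The 2 tKO libraries with the highest Twf1, both of culture 2, had the lowest marker means of the 8 DM3 libraries. Within culture 1 the tKO minus control difference of Twf1 in DM3 was 0.78 (log2) and within culture 2 it was 1.39. In culture 1 the tKO marker means lay above those of the controls. The part of the marker difference in the Twf1 difference was not tested. All 19 markers were listed above 0 in at least 1 library of each DM3 group, and their summed level ranged from 1298 to 1620.4 FPKM in control DM3, with 734 to 1656 FPKM for tKO DM3.

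**Figure D2:**
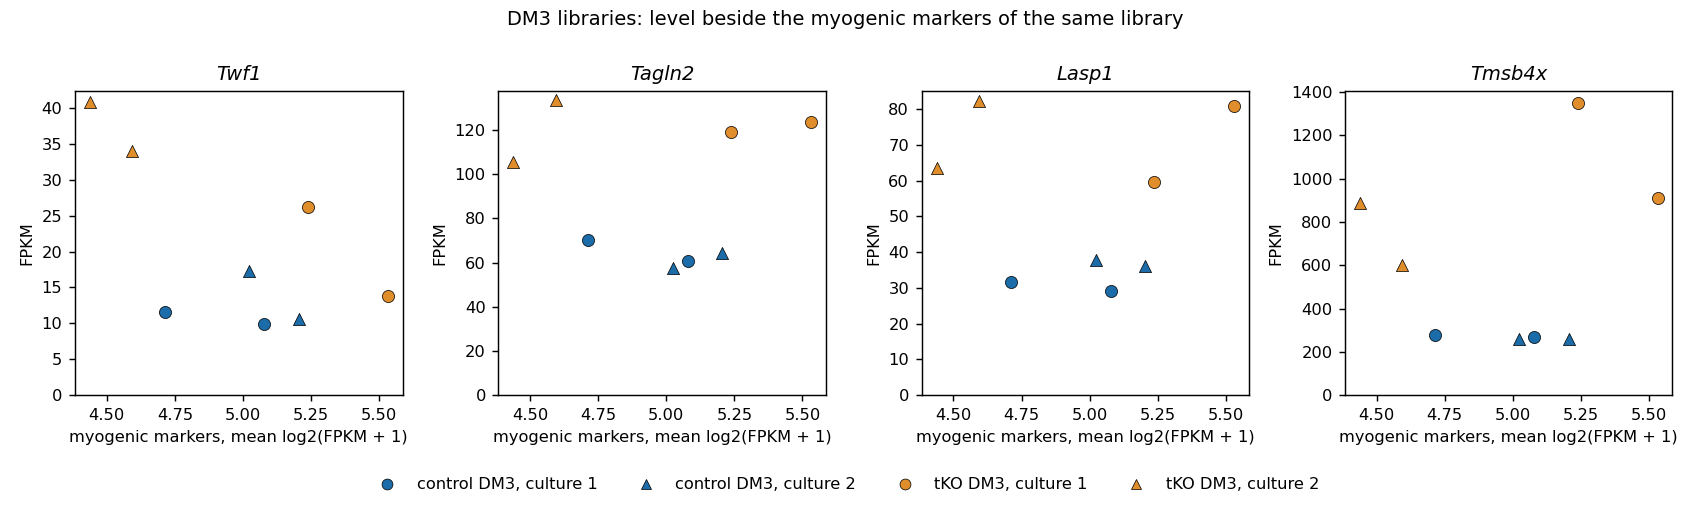
Levels of Twf1, Tagln2, Lasp1 and Tmsb4x in the 8 DM3 libraries (y axes, FPKM) against the mean log2(FPKM + 1) of 16 myogenic markers in the same library (x axis), with colours for control and tKO and shapes for the culture. For Twf1 the 4 tKO libraries run from 13.7 FPKM at a marker mean of 5.53 to 40.8 FPKM at 4.44; for Tmsb4x all 4 lie above the controls at every marker mean.

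Twf2 (chr9:106203108-106215389, plus strand), the second twinfilin and the one that is abundant in striated muscle, moved the other way. In control cells it was at 18.1, 17.8, 18.4 and 13.5 FPKM in GM and 27.7, 34.3, 28.6 and 25.8 FPKM in DM3. In tKO cells it was at 16.7, 14.4, 17.6 and 12.1 FPKM in GM and 26.3, 18.0, 17.5 and 18.3 FPKM in DM3. Of the tKO DM3 libraries, clone 1 culture 1 alone reached the control DM3 range, and the other 3 stayed near the GM level. Twf2 rose during differentiation by 0.75 in control cells (SE 0.15; limma, adjusted p = 4.07e-04) and by 0.37 in tKO cells (SE 0.15; adjusted p = 0.0415). With the line and culture as a block, the tKO value no longer passed the test (limma, adjusted p = 0.0719), and over 32 alternative fits it passed in 19. The ratio of Twf1 to Twf2 FPKM was 2.56 ± 0.404 in control GM, 2.56 ± 0.264 in tKO GM, 0.436 ± 0.161 in control DM3 and 1.54 ± 0.739 in tKO DM3 (SD, n = 4 each). In tKO DM3 that ratio was 0.524 in clone 1 culture 1 and 1.498 to 2.23 in the other 3 libraries, and the controls did not exceed 0.671.

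Tagln2 (chr1:172500047-172507380, plus strand), an actin-bundling relative of the smooth muscle protein transgelin, was higher in tKO cells at both stages. In GM it was at 270.0, 281, 285 and 299 FPKM in control cells and 417, 716, 323 and 503 FPKM in tKO cells. In DM3 it was at 60.8, 64.6, 70.5 and 57.6 FPKM in control cells and 124, 134, 119 and 106 FPKM in tKO cells. The groups did not overlap at either stage, and within GM the tKO libraries of culture 2 were above those of culture 1 in each clone. It fell with differentiation in both genotypes, by -2.15 in control cells (log2, SE 0.17; limma, adjusted p = 4.41e-08) and -1.96 in tKO cells (SE 0.17; adjusted p = 1.07e-07). The tKO mean in DM3 was 121 ± 11.7 FPKM, against 63.3 ± 5.53 FPKM in control cells and 284 ± 12.1 FPKM in control GM (SD, n = 4 each).

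In GM, the summed smooth muscle markers were higher in culture 2 than in culture 1 in both genotypes, and highest in tKO culture 2. Tagln2 was also highest in the tKO libraries of culture 2, while in control GM it stayed between 270 and 299 FPKM. The 8 markers, all in the table, summed to 2097 and 2447 FPKM in the tKO GM libraries of culture 1 and to 6140 and 5753 FPKM in those of culture 2. In control GM they summed to 1901 and 1957 FPKM in culture 1 and to 3004 and 3192 FPKM in culture 2. Acta2, the smooth muscle actin that myoblasts also express, made up most of that sum. Of the 7 tested, 4 had a positive and 3 a negative tKO minus control difference in GM, and none passed (limma). Myh11, the smooth muscle myosin, was at or near 0 in the same libraries (at most 0.206 FPKM). Within culture 1 the tKO minus control difference of Tagln2 in GM was 0.40 (log2) and within culture 2 it was 1.05. The matching values were 0.30 and 0.92 for Tmsb4x and 0.33 and 0.65 for Lasp1, while Cfl2 had 0.54 in each culture. The part of these markers in the GM differences was not tested.

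Lasp1 (chr11:97799000-97838764, plus strand), a LIM and SH3 protein of focal adhesions with nebulin repeats, showed the same course as Tagln2 over the libraries. Its levels were 152, 148, 153 and 131 FPKM in control GM and 224, 265, 165 and 179 FPKM in tKO GM. In DM3 they were 29.1, 36.1, 31.7 and 37.7 FPKM in control cells and 80.8, 82.3, 59.7 and 63.5 FPKM in tKO cells. Neither stage showed overlap, and clone 1 lay above clone 2 in each pair of tKO cultures. With differentiation Lasp1 changed by -2.09 in control cells (log2, SE 0.15; limma, adjusted p = 1.27e-08) and -1.52 in tKO cells (SE 0.15; adjusted p = 3.29e-07). The ratio of the DM3 means, tKO to control, was 2.13.

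Cap1 (chr4:122859047-122886056, minus strand), which recharges monomers and speeds filament turnover with cofilin, was at 151, 161, 153 and 156 FPKM in control GM and 199, 265, 152 and 192 FPKM in tKO GM. In DM3 it was at 65.6, 75.3, 68.5 and 77.0 FPKM in control cells and 139, 155, 97.1 and 102 FPKM in tKO cells. All tKO DM3 libraries lay above all control DM3 libraries, with clone 1 higher than clone 2, and the GM ranges overlapped. Cap1 changed with differentiation by -1.11 in control cells (log2, SE 0.16; limma, adjusted p = 1.90e-05) and -0.71 in tKO cells (SE 0.16; adjusted p = 0.00115).

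Coro1c (chr5:113842436-113908758, minus strand) was at 47.4, 48.1, 41.0 and 43.4 FPKM in control GM and 33.1, 38.6, 39.8 and 52.4 FPKM in tKO GM. In DM3 it was at 11.9, 13.3, 12.5 and 14.4 FPKM in control cells and 15.5, 16.4, 20.7 and 20.8 FPKM in tKO cells. The DM3 groups did not overlap, though the lowest tKO library stood only a little above the highest control library, and the GM ranges overlapped. The DM3 ratio of means was 1.41, the smallest among the 6 genes with a positive difference. Coro1c holds 2 of the 4 8mers, and a link between matches and the size of a difference was not tested. Coro1c fell with differentiation in control cells (log2 difference -1.71, SE 0.13; limma, adjusted p = 2.95e-08) and in tKO cells (-1.11, SE 0.13; adjusted p = 2.62e-06).

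Pfn1 (chr11:70651850-70654644, minus strand), which hands monomers to growing ends, was at 528, 629.8, 687 and 533 FPKM in control GM and 795, 868, 627 and 729.8 FPKM in tKO GM. In DM3 it was at 215, 209, 259.5 and 233 FPKM in control cells and 250.1, 273, 175 and 183 FPKM in tKO cells. The ranges overlapped at both stages, and in tKO cells of either stage and culture clone 1 lay above clone 2. In tKO DM3 clone 2 lay below the control range, with clone 1 near or above the top of it. It fell with differentiation in control cells (-1.37, SE 0.15; limma, adjusted p = 1.47e-06) and in tKO cells (-1.79, SE 0.15; adjusted p = 8.14e-08). The ratio of Pfn1 to Tmsb4x FPKM was 0.857 ± 0.0619 in control DM3, against 0.266 ± 0.138 for tKO DM3 (SD, n = 4 each).

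Cfl2 (chr12:54858817-54862877, minus strand) ranged from 46.6 to 58.2 FPKM in control GM and from 62.4 to 83.1 FPKM in tKO GM, with no overlap. In DM3 the ranges were 108 to 145 FPKM in control cells and 97.3 to 141 FPKM in tKO cells, which overlapped. It rose with differentiation by 1.25 in control cells (log2, SE 0.14; limma, adjusted p = 9.90e-07) and by 0.60 in tKO cells (SE 0.14; adjusted p = 0.00113). Cnn3 (chr3:121426541-121458205, plus strand) stayed between 149 and 357 FPKM in all 16 libraries. Its change with differentiation was 0.15 in control cells (SE 0.17; 95% interval -0.21 to 0.50; limma, adjusted p = 0.471) and -0.24 in tKO cells (SE 0.17; adjusted p = 0.235). Under median-of-ratios scaling the control value of Cnn3 was 0.35 and passed the test (adjusted p = 0.0463).

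**Figure D3:**
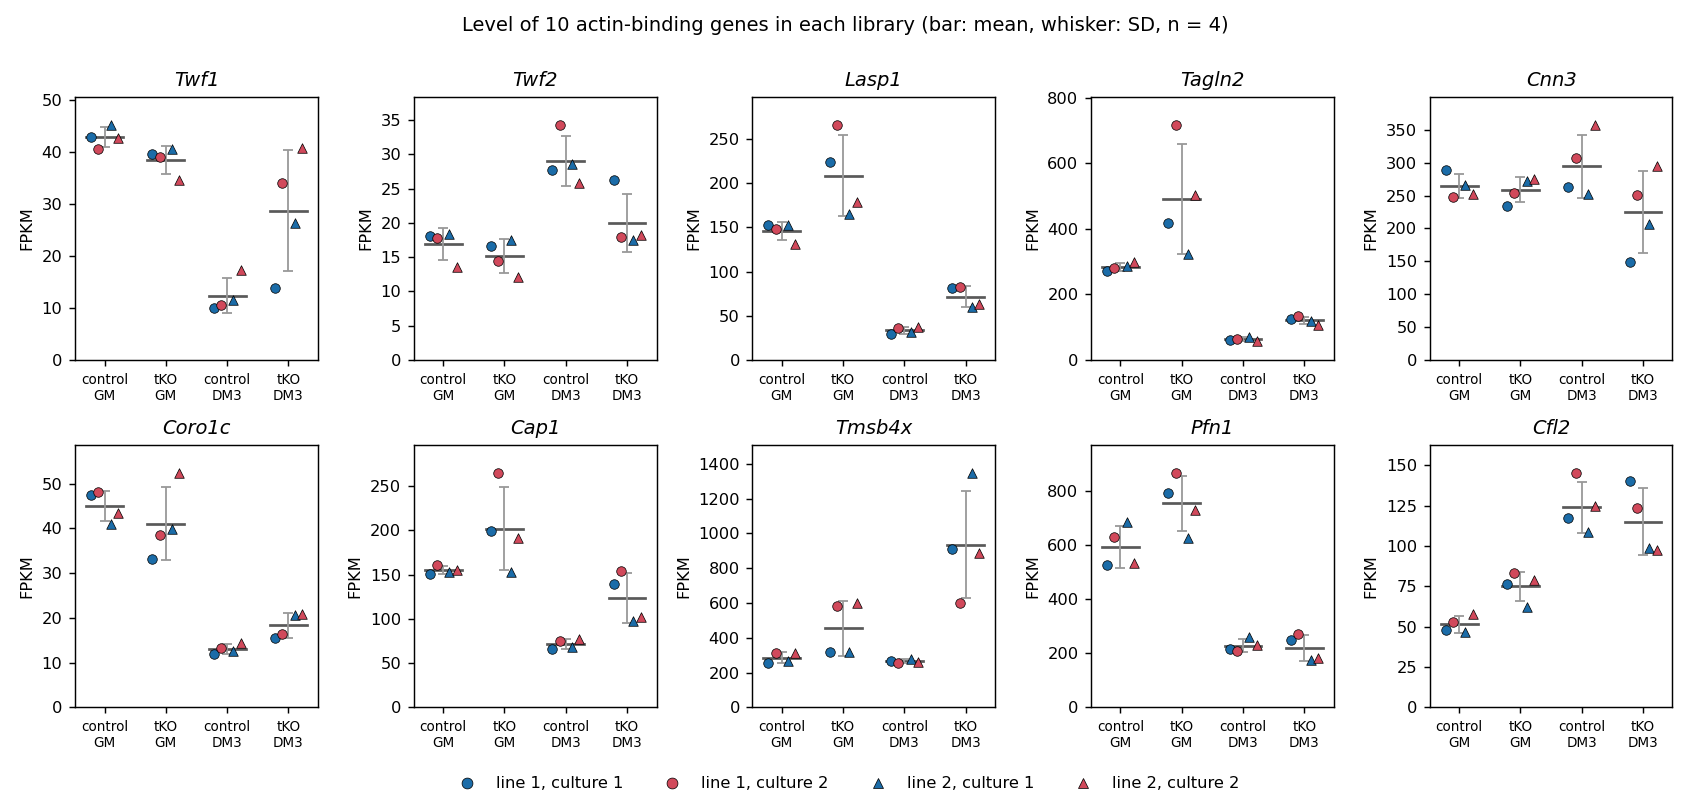
FPKM of each of the 10 genes (y axes, linear from 0) in the 4 groups on the x axis; each point is one library, shapes mark the line and colours the culture, and bars and whiskers give the mean and SD (n = 4). Tmsb4x in tKO DM3 sits between 603 and 1349 FPKM above all controls, and Twf1 in tKO DM3 spreads from 13.7 to 40.8 FPKM.

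The genotype differences in DM3 were known when these genes were proposed, so they are given as a description and nothing is read from their number. In DM3, 5 of the 10 genes passed adjusted p under 0.05 (limma over all tested genes), all higher in tKO cells, where 3.38% of tested genes passed and 2.02% passed as higher. The log2 differences were 1.75 for Tmsb4x (SE 0.23), 1.08 for Twf1 (SE 0.24), 1.06 for Lasp1 (SE 0.15), 0.92 for Tagln2 (SE 0.17) and 0.75 for Cap1 (SE 0.16). All 5 hold a seed match in the 3′ UTR. The genes that did not pass were Coro1c at 0.46 (SE 0.13), Pfn1 at -0.08 (SE 0.15), Cfl2 at -0.11 (SE 0.14), Cnn3 at -0.42 (SE 0.17) and Twf2 at -0.53 (SE 0.15). Of these 5, Coro1c and Cnn3 hold a match and the other 3 do not. The genes were picked in part as reported targets and with these differences known, so nothing is read from this split. The tKO and control groups did not overlap for Lasp1, Tagln2, Coro1c, Cap1 and Tmsb4x, beside 8.52% of tested genes. The median difference of the 10 genes was 0.60, and that of all tested genes was 0.0077. Within culture 1 and culture 2 the DM3 differences were 2.01 and 1.49 for Tmsb4x, 1.17 and 0.95 for Lasp1, 0.88 and 0.95 for Tagln2, and 0.79 and 0.72 for Cap1. Each kept its direction in both cultures. Of the genes that did not pass, Coro1c was higher in both (0.52 and 0.40). Twf2 (-0.37 and -0.68) and Cnn3 (-0.55 and -0.28) were lower in both. Pfn1 (-0.17 and 0.020) and Cfl2 (0.065 and -0.29) differed in sign between cultures. Over 31 alternative fits, Tmsb4x passed in 31, Lasp1 in 29, Tagln2 in 27, Cap1 in 23 and Twf1 in 22. Twf2 passed as lower in tKO cells in 4 of them. Many of these fits, such as those without a GM library, left the DM3 difference itself unchanged. With line averages as units, Tmsb4x and Tagln2 passed, and Lasp1, Cap1 and Twf1 did not.

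The genotype differences in GM were also known beforehand. They were larger than in DM3 for Cfl2 and Pfn1 and, in size, smaller for the other 8 genes. Only Tagln2 passed, at 0.72 (SE 0.17), as higher in tKO cells, beside 2.06% of tested genes in either direction (0.549% higher, 1.51% lower), and it passed in 9 of 31 alternative fits. The share over all genes moved with single libraries, from 244 genes to 80 without control population 1 culture 1 and to 749 without tKO clone 2 culture 1. The differences were 0.61 for Tmsb4x (SE 0.23), 0.54 for Cfl2 (SE 0.14), 0.49 for Lasp1 (SE 0.15), 0.35 for Cap1 (SE 0.16) and 0.34 for Pfn1 (SE 0.15). The remaining 4 genes lay between -0.15 and -0.03. The groups did not overlap for Lasp1, Tagln2, Tmsb4x and Cfl2, beside 14% of tested genes. For the interaction of genotype and stage, none of the 10 genes passed (limma), beside 0.254% of tested genes. None of the 10 passed with voom on recovered fragments. The largest interaction values were 1.24 for Twf1 and 1.14 for Tmsb4x. That the stage change differed between genotypes for any single member was therefore not shown at this number of libraries.

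**Figure D4:**
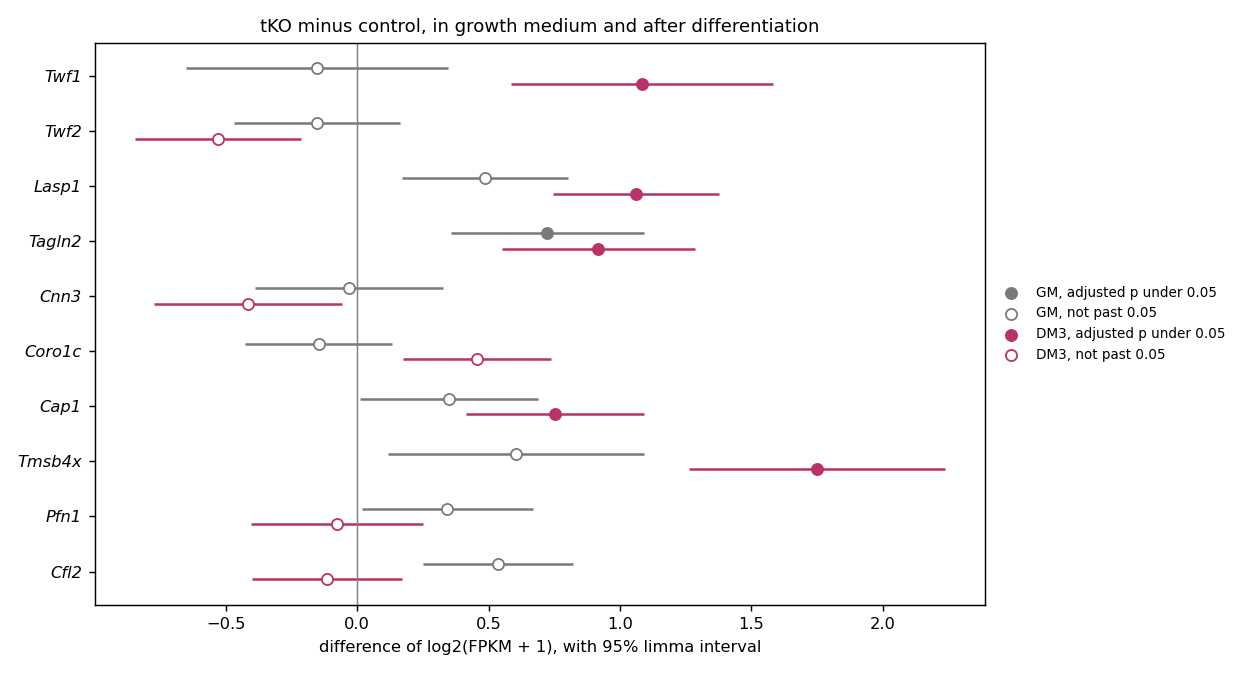
tKO minus control difference of log2(FPKM + 1) (x axis) for each of the 10 genes (y axis) in GM and in DM3, with 95% intervals; filled points passed adjusted p under 0.05. In DM3 the filled points run from 0.75 for Cap1 to 1.75 for Tmsb4x, and in GM only Tagln2 is filled.

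The change from GM to DM3 was tested in each genotype, which share no library. In control cells 8 of the 10 genes passed, 6 lower (Twf1, Lasp1, Tagln2, Coro1c, Cap1 and Pfn1) and 2 higher (Twf2 and Cfl2), in a comparison where 61.5% of tested genes passed. In tKO cells 8 passed, 5 lower (Lasp1, Tagln2, Coro1c, Cap1 and Pfn1) and 3 higher (Twf2, Tmsb4x and Cfl2), beside 60.9% of tested genes (24.9% higher and 36% lower). Among all tested genes 38.3% fell and 23.2% rose in control cells, and 3611 rose and 3631 fell once libraries were scaled by median of ratios. The scaling moved the median of all genes from -0.15 to 0.0097 for control cells, and for tKO cells from -0.12 to 0.0064. The members' medians were -1.24 in control and -0.61 in tKO cells, below the median of all genes. Each library entered 1 stage and 1 genotype comparison, so the stage and genotype values share libraries.

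**Figure D5:**
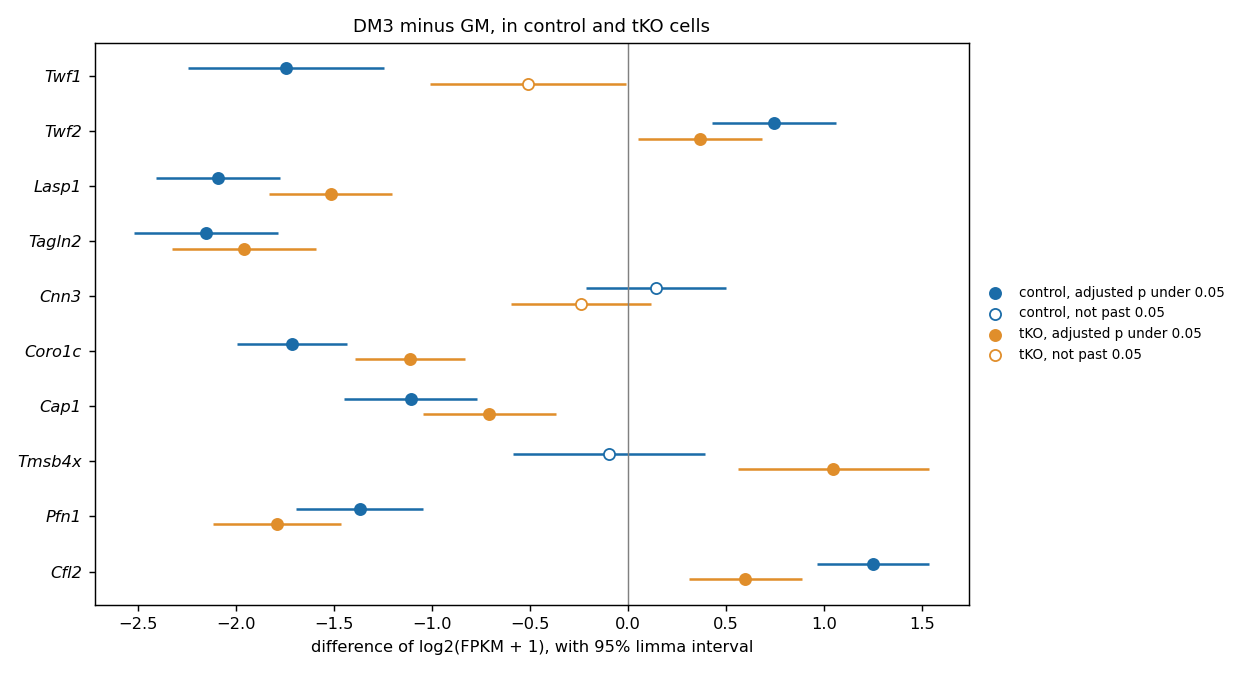
DM3 minus GM difference of log2(FPKM + 1) (x axis) for each of the 10 genes (y axis) in control and in tKO cells, with 95% intervals; filled points passed adjusted p under 0.05. The 2 genotypes lie farthest apart for Twf1, at -1.74 and -0.51, and Tmsb4x, at -0.10 and 1.05.

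Differences between the 2 tKO clones were tested over both stages. Cap1 and Lasp1 were lower in clone 2 than in clone 1, by -0.49 (log2, SE 0.12; limma, adjusted p = 0.0344) and -0.45 (SE 0.11; adjusted p = 0.0331), beside 5.41% of tested genes in either direction and 2.25% lower in clone 2. Over 23 alternative fits those adjusted p-values ran from 0.00881 to 0.125 for Cap1 and from 0.0209 to 0.120 for Lasp1, so single libraries and settings ended either call. Between the 2 control populations none of the 10 genes passed with limma or with voom on fragments, none had an unadjusted p under 0.05, and 0% of tested genes passed. The tKO clones thus differed in 2 of the genes for which their group stood above control in DM3, and in each clone the DM3 values of both stayed above the control range.

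The order of levels, compared per transcript length in FPKM, differed between stages. In control GM, Pfn1 (595 ± 77.7 FPKM) came first, then Tmsb4x, Tagln2 and Cnn3 with overlapping libraries, then Cap1 and Lasp1, then Cfl2, Coro1c and Twf1, and last Twf2 (17.0 ± 2.31 FPKM). In tKO GM the order was close to that, with Pfn1, Tagln2 and Tmsb4x overlapping in turn at the top. In control DM3, Cnn3, Tmsb4x and Pfn1 overlapped in turn at the top, Cfl2 came next, and Coro1c and Twf1 came last with overlapping libraries. In tKO DM3, Tmsb4x stood alone above Cnn3, and Twf1, Twf2 and Coro1c overlapped in turn at the bottom. The summed level of the 10 genes ran from 1069 to 1205 FPKM in control DM3, and 1689.8 to 2169.9 FPKM was the range in tKO DM3.

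Over the 16 libraries, which share stage and genotype, the genes whose log2 levels followed Twf1 most closely were Ywhaz (Pearson r = 0.972), Fbxo33 (0.969) and Uhmk1 (0.965). For Tagln2 they were Sorbs3 (0.982), Ctdp1 (0.982) and Sars2 (0.980). Among the members, Lasp1 and Tagln2 were most alike (r = 0.979), Cap1 was most like Lasp1 (0.968), and Pfn1 (0.923) and Coro1c (0.906) were most like Tagln2. Twf1 was most like Coro1c (0.852) and least like Twf2 (-0.874). The highest r of Cnn3 with any member was 0.0994, with Twf1. These values describe 16 libraries dominated by the change of stage and carry no test.

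Other genes of the actin cycle were counted from lists drawn up by function, with earlier results of these data known. Of 20 tested genes for monomer binding, severing and turnover, 1 was higher in tKO DM3, Cfl1, the cofilin of most cells (0.58, SE 0.15; 1045 against 690.5 FPKM; limma, adjusted p = 0.0372). None of the 20 was lower. None passed in GM. In differentiation 8 rose and 9 fell in control cells, and 10 rose and 8 fell in tKO cells. Among all tested genes 23.2% rose and 38.3% fell in control cells, and 24.9% rose and 36% fell in tKO cells, or near-even numbers under median-of-ratios scaling. Pfn2, the second profilin, rose in both (2.02 and 2.48), while Pfn1 fell. The median DM3 genotype difference of this list was 0.13.

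Of 36 tested nucleation genes, 3 were higher and 1 lower in tKO DM3, beside 2.02% higher and 1.36% lower among all tested genes. The Arp2/3 subunits Arpc5 (0.75, SE 0.16) and Arpc1a (0.58, SE 0.089) and the formin Fmnl3 (0.48, SE 0.12) were the higher ones, and the Arp2/3 subunit Arpc3 (-0.46, SE 0.12) was the lower one. The Arp2/3 subunits that passed thus lay in both directions. Of 34 tested capping, bundling and crosslinking genes, none was higher and 3 were lower in tKO DM3, namely Carmil1 (-0.98, SE 0.20), Pdlim7 (-0.60, SE 0.14) and Ezr (-0.56, SE 0.13). In GM 1 of the 34 was lower, the filament-elongation factor Enah (-0.95, SE 0.18).

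In the family of Tagln2, Cnn3 and Lasp1, which here also took in the tropomyosins, 14 genes were tested. The tropomyosins Tpm4 (1.46) and Tpm3 (0.65) were higher in tKO DM3 and none of the 14 was lower. In GM the tropomyosin Tpm1 was higher (0.81, SE 0.14). In differentiation 3 rose and 8 fell in each genotype. None of the 6 actins passed between genotypes at either stage, though in GM all 6 differences were positive (median 0.39). Their summed level in GM was 5603 to 6963 FPKM for control and 5766 to 11084 FPKM for tKO cells. The highest GM sums were those of tKO culture 2 (10823 and 11084 FPKM). In DM3 the actins summed to 2123 to 3012 FPKM for control and 2572 to 3551 FPKM for tKO cells. Of 29 other reported miR-1/206 targets, 6 were higher and 1 lower in tKO DM3, with a median difference of 0.29, beside 2.02% and 1.36% of tested genes. The largest difference was that of the lower gene, Ccnd2 (-1.55, SE 0.22; 1.53 against 6.14 FPKM). Mmd (1.35, SE 0.21), Notch3 (1.15, SE 0.25) and G6pdx (1.07, SE 0.19) came next, all higher. In GM only Ccnd2 passed, again as lower (-2.06, SE 0.22; 0.141 against 3.77 FPKM).

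Promoters, taken as 250 bases before to 50 after the start in RefSeq (GRCm38.p6), were matched for 9 of the 10 genes. The GC box GGGCGG, searched on both strands, was found in 8 of the 9 and in 63.7% of the promoters of tested genes. The muscle MCAT element CATTCC, which is contained in the seed motifs above but was searched here in promoters, was found in 2 (Pfn1 and Tagln2), beside 12.1%. The CArG box, bound by serum response factor, was found in none, beside 1.33% of tested genes' promoters. These matches are a description of letters in this window.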

How the data were processed

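The members and gene lists were chosen with earlier results of these data known. The authors deposited 1 table of FPKM values for all 16 libraries, and STAR, DESeq and the mm10 build are named in the submitters' processing notes without their roles or versions. FPKM multiplied by the listed gene length was a whole multiple of 1 fragment for 100% of the values above 0 (within 0.05 fragment), which gave the depth of each library. The 95% intervals come from the spread between libraries in the fit.

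From the deposited FPKM, log2(FPKM + 1) of the 11832 genes with a mean of at least 0.5 FPKM entered a limma fit (limma 3.58.1, R 4.3.3). Group means over all 16 libraries shared one spread (trended, robust), and Benjamini-Hochberg adjustment ran over all 11832 genes at a threshold of 0.05. Differences are given for log2(FPKM + 1), a scale that shrinks changes of low genes. Clones and populations were compared in a model of line by stage. All 10 members are named. From each list up to 4 genes per comparison are named, those past the threshold with the largest difference. Deviations of samples with the same line and culture number had a mean r of 0.20 across stages (8 pairs, lowest 0.0771). That pairing comes from the shared cell line in the labels. Samples of the other genotype at the same stage with the same culture number had a mean r of 0.218 (16 pairs, -0.224 to 0.558). The labels tie these by the number alone, so an r of this size was not particular to samples of the same line. Alternatives changed the pseudocount, the filter, the scaling, the libraries and the block. Near-identical gene copies and overlapping genes could not be separated in the deposited values, and strand use is not given in the sources used here. The mature miR-1a-3p sequence is not used here.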

Additional observations from a re-analysis of the deposited data

Results flagged for a closer look

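Twf2 stood apart in 2 of its groups. In control GM the lowest library, population 2 culture 2, was at 13.5 FPKM, and its gap to the next library was 0.881 of the group's range. In tKO DM3 the highest library, clone 1 culture 1, was at 26.3 FPKM, with a gap of 0.916 of the range. Both exceed Dixon's 95% limit for 4 samples. In all, 40 groups of 4 were examined, and chance flags about 1 in 20.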

How the results depend on the processing

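The number of members past the threshold for tKO against control in GM was 1. It was 2 with a pseudocount of 0.1 and with culture numbers as a replicate block. It was 0 without a filter, with a filter of 5 FPKM, with median-of-ratios or TPM scaling, with only the compared libraries and with line averages, and 0 to 5 when a library, line or DM3 culture was left out. In DM3 it was 5, and 6 with TPM scaling and with the replicate block, each adding Twf2 as lower in tKO cells (adjusted p 0.0443 and 0.0399 with limma, 0.0652 as reported), 3 with only the compared libraries, 2 with line averages and 1 to 7 on leaving out. It was 1 without control population 1, 2 without control population 2, 2 without culture 2, and 3 without culture 1, without control population 1 culture 1 or without tKO clone 1 culture 2. The interaction gave 0, and 0 to 2 on leaving out. The clone difference gave 2, and 0 without a filter and with TPM scaling, 4 with the replicate block and 0 to 3 on leaving out. Counts for differentiation stayed at 8 to 9 in control and 7 to 10 in tKO cells on leaving out, and the block by line and culture, added after seeing the data, changed no call there but that of Twf2. Of 1790 values of single members under alternatives, 1775 kept their sign. Many of these alternatives could not change the value, such as a changed filter, a block, line averages or leaving out a library of a group not compared. The count of kept signs is therefore no measure of stability. The sign turned for Tmsb4x in control differentiation (0.11 with median-of-ratios scaling), for Cnn3 on leaving out (-0.036 to 0.33 in control, -0.55 to 0.078 in tKO differentiation), for Twf1 between clones (-0.061 to 0.56), and, in the genotype differences on leaving out, for Pfn1 (-0.35 to 0.19) and Cfl2 (-0.33 to 0.096) in DM3 and Coro1c (-0.32 to 0.025) and Cnn3 (-0.11 to 0.051) in GM; the cause was not tested. Values between control populations are not among these 1790. Among all tested genes, calls numbered 244 in GM and 33 to 1315 on leaving out a library, line or culture, and 400 in DM3 and 49 to 1136 on leaving out, with the lowest without control population 1 and the highest without tKO clone 2. Depth did not limit these genes, the lowest being covered by 522 fragments.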
